A study of Homo sapiens with 8 samples.

Results

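The human silencing complex (HUSH) and the corepressor TRIM28 were followed through 10 genes: TASOR, PPHLN1 and MORC2 for HUSH, SETDB1 and its partner ATF7IP, TRIM28, the heterochromatin protein 1 (HP1) genes CBX1, CBX3 and CBX5, and SUV39H1. They were chosen by name as HUSH partners and KRAB corepressor factors other than MPHOSPH8, with earlier results of these data known but without a rule on their values, and were 10 of the 32803 gene symbols counted. All 10 were found, TASOR under its older symbol FAM208A, and all 10 passed the filter on low counts, which kept 16221 genes. MPHOSPH8, the chromodomain subunit of HUSH, is given beside them.

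HUSH is built from TASOR, MPHOSPH8 and periphilin (PPHLN1), and is known for silencing newly integrated retroelements, LINE-1 copies and other long intronless transcribed DNA. It works with the ATPase MORC2, which compacts chromatin, and with SETDB1, a methyltransferase that places trimethylation on lysine 9 of histone H3 (H3K9me3) and is stabilised by ATF7IP. TRIM28 (KAP1) is brought to DNA by KRAB zinc finger proteins and also recruits SETDB1, and the mark is bound by HP1 proteins and extended by SUV39H1.

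RNA-seq counts came from 8 libraries of UWB1.289, an ovarian carcinoma cell line without functional BRCA1, of UWB1.289+BRCA1, in which BRCA1 was restored, and of a PARP inhibitor-resistant derivative of each, labelled Olres. Each of the 4 groups held 2 libraries. In the deficient background the parental line was taken at passage 29 and its resistant derivative at passage 56. In the proficient background the passages were 10 for the parental and 45 for the resistant line. All were cultured without drug, so drug exposure at harvest was not compared, and resistance and passage number cannot be told apart in either background. The labels name 1 resistant derivative per background and do not say whether the 2 replicates were separate cultures. P-values therefore measure only the spread between libraries, which may be technical.

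Libraries held 24094821 to 34394107 counts. BRCA1 itself was at 36.1 and 35.1 CPM (counts scaled to the library total) in parental deficient, 34.7 and 34.8 in resistant deficient, 212 and 191 in parental proficient and 2176 and 2365 in resistant proficient libraries. Every library labelled proficient thus held more BRCA1 mRNA than every one labelled deficient. Of 11 epithelial ovarian carcinoma markers, 10 were above 1 CPM in 3 groups and 11 in resistant proficient cells. Of 5 leukocyte markers only PTPRC exceeded 1 CPM, 0 of 3 fibroblast markers did, and HBA1 and HBB were at 0. The 3 endothelial markers summed to 38.6 to 45.3 CPM in deficient and 2.49 to 4.68 CPM in proficient libraries, and their part in the results was not tested. The libraries also differed by the GC content of transcripts: genes with at least 57.0% GC had a median deviation from their mean log2 CPM of 0.67 and 1.04 in the resistant deficient libraries and of -0.60 and -0.44 in the parental proficient ones. Values with this trend removed from each library are therefore given beside the results for single genes that moved by more than 1.5 times, among those run. It was run for the 10 genes, MPHOSPH8 and genes that start head to head with them. Genes named from other lists were run only in the comparison with their smallest p. Other single values, such as those of further neighbours, were not corrected.

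**Figure D1:**
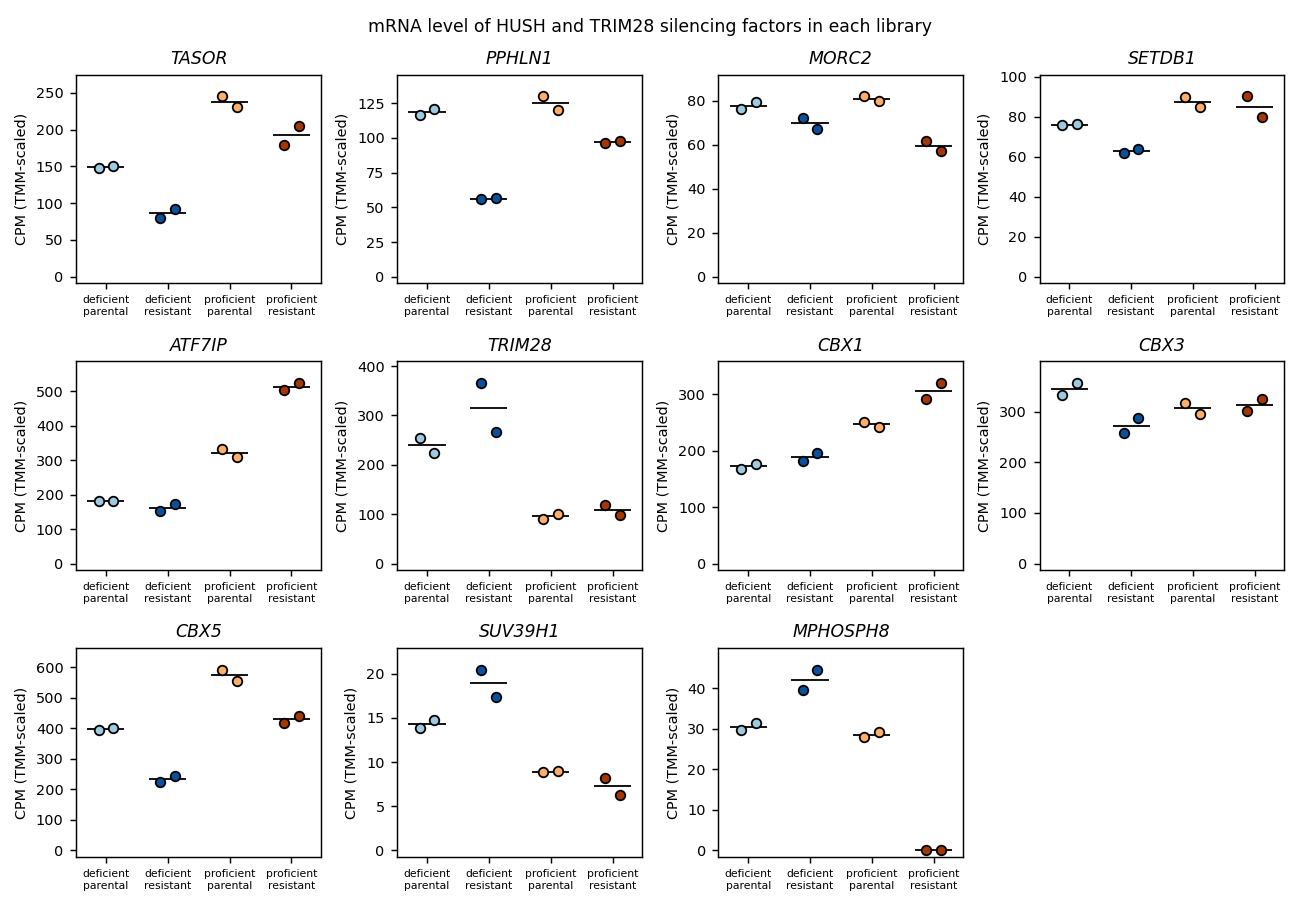
Level of each silencing factor and of MPHOSPH8 in the 8 libraries, as CPM on TMM-scaled totals (y axis, linear, a separate scale for each gene) by group (x axis). Points are libraries and lines are means of 2. TASOR, PPHLN1 and CBX5 are lower in both resistant groups than in the matching parental group, and TRIM28 is highest in deficient cells.

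TASOR, the scaffold subunit of HUSH, was lower in both resistant derivatives. It stood at 148 and 151 CPM in parental deficient libraries and at 79.9 and 92.7 CPM in resistant deficient ones. In proficient cells it stood at 245 and 231 CPM in parental and at 179 and 206 CPM in resistant libraries. The groups did not overlap in either background, and every proficient library was above every deficient one. Such separation of 2 against 2 libraries was common, seen for 78.7% of tested genes in the deficient and 76.4% in the proficient resistance comparison, and for 83.0% and 86.5% between BRCA1 states in parental and resistant cells. TASOR fell with resistance in deficient cells by 0.79 in log2 units (SE 0.09, edgeR adjusted p = 2.73e-05, n = 2 a group), which is 1.73-fold. In proficient cells it fell by 0.31 (SE 0.09, edgeR adjusted p = 0.0109), a call that was lost without parental proficient replicate 1 (log2 change -0.23, adjusted p = 0.136) and without resistant proficient replicate 1 (-0.16, adjusted p = 0.193). Across all genes tested by edgeR, 27.0% fell in the deficient and 27.8% in the proficient resistance comparison, and 55.8% and 53.7% were called in either direction. In bulk RNA a smaller share of cells with a transcript and less transcript per cell cannot be told apart.

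TASOR's transcripts have 36.7% GC, at the 1.43 percentile of tested genes. After removal of the GC trend the falls were 0.43 (edgeR adjusted p = 8.98e-07) and 0.24 (edgeR adjusted p = 0.000261) on the log2 scale in deficient and proficient cells. The difference between BRCA1 states was 0.67 (SE 0.09, edgeR adjusted p = 4.92e-05) in parental and 1.16 (SE 0.09, edgeR adjusted p = 4.54e-07) in resistant cells, higher in proficient ones. With the trend removed it was 0.28 and 0.47. The falls with resistance differed between backgrounds by 0.49 (SE 0.12, edgeR adjusted p = 0.0075), and by 0.19 (adjusted p = 0.0325) with the trend removed. Because the comparisons between BRCA1 states use the same libraries as the resistance comparisons, they are not separate evidence.

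PPHLN1, which encodes the periphilin subunit that tethers HUSH to RNA, had the largest fall of the 10 genes in deficient cells. It was at 117 and 120 CPM in parental deficient and 56.3 and 56.4 CPM in resistant deficient libraries, and at 130 and 120 CPM in parental proficient and 96.5 and 97.9 CPM in resistant proficient ones. Neither pair of groups overlapped, and the resistant deficient libraries lay far below all others. The fall with resistance was 1.07 in log2 units (SE 0.07, edgeR adjusted p = 5.37e-07), or 2.10-fold, in deficient cells and 0.36 (SE 0.07, edgeR adjusted p = 0.000819) in proficient cells. Once the GC trend was removed, these falls were 0.80 and 0.32. The 2 falls differed from each other: the difference between backgrounds was 0.71 (SE 0.10, edgeR adjusted p = 0.000136), and 0.48 with the trend removed. In parental cells PPHLN1 differed between BRCA1 states by only 0.08 (edgeR adjusted p = 0.337), against 0.79 (SE 0.07, edgeR adjusted p = 1.26e-06) in resistant cells, and with the GC trend removed these values were -0.22 (adjusted p = 0.000837) and 0.26 (adjusted p = 0.00025).

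MPHOSPH8, which binds the H3K9me3 mark for HUSH, did not follow its partners. It was at 29.6 and 31.6 CPM in parental deficient, 39.7 and 44.6 CPM in resistant deficient and 27.9 and 29.1 CPM in parental proficient libraries, and was at 0.0697 and 0 CPM in resistant proficient ones. Those last values are 2 counts against 1535 in the parental proficient libraries, a ratio of 755 with a 95% interval of 209 to 6238 that covers counting error only. In deficient cells MPHOSPH8 rose by 0.46 (SE 0.12, edgeR adjusted p = 0.00812), a call lost without parental deficient replicate 1 (0.41, adjusted p = 0.0706), and by 0.72 with the GC trend removed. Resistant proficient cells thus held TASOR and PPHLN1 mRNA at 179 to 206 and 96.5 to 97.9 CPM while MPHOSPH8 mRNA was near 0. Scaled to exon length, the ratio of MPHOSPH8 to TASOR was 0.414 and 0.433 in parental deficient, 1.03 and 0.996 in resistant deficient, 0.236 and 0.262 in parental proficient and 0.000801 and 0 in resistant proficient libraries. The ratio of TASOR to PPHLN1 had a narrower range, from 0.79 in a parental deficient library to 1.32 in a resistant proficient one.

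MORC2, the HUSH-linked ATPase, was at 76.1 and 79.3 CPM in parental deficient, 72.3 and 67.1 CPM in resistant deficient, 82.1 and 79.8 CPM in parental proficient and 61.7 and 57.1 CPM in resistant proficient libraries. The lowest values were those of the resistant proficient libraries. MORC2 fell with resistance by 0.45 (SE 0.08, edgeR adjusted p = 0.000463) in proficient cells. In deficient cells the change of -0.16 did not pass the test (edgeR adjusted p = 0.0956, and -0.10 with the GC trend removed), but it passed without resistant deficient replicate 1 (-0.24, adjusted p = 0.0403) and without either resistant proficient replicate (-0.19, adjusted p = 0.0453 and 0.0457). The difference between the backgrounds was -0.29 (SE 0.11, edgeR adjusted p = 0.0451). It missed the threshold in 14 of 16 alternatives, among them each library left out in turn, where it ranged from -0.31 to -0.16. Removal of the GC trend, with or without a block for replicate number, kept the call, with values down to -0.43 (edgeR adjusted p down to 0.000185). In resistant cells MORC2 was lower in proficient than deficient libraries by 0.23 (edgeR adjusted p = 0.0173), or by 0.36 with the GC trend removed. The call was lost without parental deficient replicate 2, resistant deficient replicate 1, parental proficient replicate 1 or resistant proficient replicate 2 (adjusted p from 0.0532 to 0.171).

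Of TASOR, PPHLN1 and MORC2, 2 fell in deficient cells and 3 in proficient cells, where 27.0% and 27.8% of all genes tested fell and where the TASOR call rests on each of 2 libraries. All genes called in both resistance comparisons moved in 1 direction: TASOR, PPHLN1 and CBX5 fell in both, a result shared by 13.2% of the genes tested. Of the 10 genes, 0 rose in both and 0 were called in opposite directions, against 10.2% and 9.30% of all tested genes.

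To show the sequence context of these 3 genes, the stretch just upstream of each start site was taken from RefSeq (GRCh38.p14, whereas the counts are on GRCh37), read 5' to 3' on the gene's strand. ATF7IP, which rose in proficient cells, is set beside them. Capitals mark matches on either strand to GGGCGG (the GC box bound by SP1), CCAAT (the NF-Y box) or CCGGAAG (an ETS core), and no marked matches overlap. The TASOR and ATF7IP stretches hold 250 bases (chr3:56683266-56683515, minus strand, and chr12:14365432-14365681, plus strand). Those of PPHLN1 and CBX5 hold the 61 bases to the start of ZCRB1 (chr12:42326106-42326166, plus strand) and the 70 bases to the start of HNRNPA1 (chr12:54280123-54280192, minus strand).
TASOR: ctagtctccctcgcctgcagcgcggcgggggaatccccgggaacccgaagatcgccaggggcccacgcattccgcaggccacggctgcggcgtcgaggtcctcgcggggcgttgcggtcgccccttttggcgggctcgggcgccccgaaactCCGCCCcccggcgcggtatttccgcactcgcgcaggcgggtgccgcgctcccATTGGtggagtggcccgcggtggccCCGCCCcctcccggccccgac
PPHLN1: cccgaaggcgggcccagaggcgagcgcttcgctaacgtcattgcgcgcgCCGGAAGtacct
CBX5: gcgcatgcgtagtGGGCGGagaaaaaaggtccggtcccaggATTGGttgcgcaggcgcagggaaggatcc
ATF7IP: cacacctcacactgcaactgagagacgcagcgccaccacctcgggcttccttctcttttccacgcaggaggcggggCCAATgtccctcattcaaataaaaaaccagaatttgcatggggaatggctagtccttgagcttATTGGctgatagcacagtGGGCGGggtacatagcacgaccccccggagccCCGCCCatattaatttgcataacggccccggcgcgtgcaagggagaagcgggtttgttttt
The TASOR stretch has 76.4% GC and 37 CpG dinucleotides, although the gene's transcripts are among the poorest in GC. PPHLN1 has 68.9% and 10, CBX5 62.9% and 6, and ATF7IP 55.6% and 14. No motif was common to the 3 genes that fell in both comparisons: GC and CCAAT boxes stand in TASOR and CBX5 and an ETS core in PPHLN1, while ATF7IP also holds GC and CCAAT boxes.

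Over the windows from 250 bases before to 50 after every start listed for a gene, GGGCGG was found in 6 of 9 of the silencing genes searched and in 48.3% of 27305 genes. CCAAT was found in 5 of 9 against 39.7%, and CCGGAAG in 3 of 9 against 12.2%. TATAAA was found in 3 of 9 against 14.0%, and the E2F motif TTTGGCGC in 1 of 9 against 0.795%. The E2F motif TTTCCCGC was in 0 of 9, against 1.98% of genes. Both strands were searched. These matches describe letters in a window and not bound sites.

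SETDB1, the H3K9 methyltransferase used by both HUSH and TRIM28, had a narrow range of levels. It was at 75.9 and 76.4 CPM in parental deficient, 61.9 and 64.1 CPM in resistant deficient, 89.7 and 85.2 CPM in parental proficient and 90.4 and 80.0 CPM in resistant proficient libraries. Only the deficient groups were separated by resistance. SETDB1 fell there by 0.27 (SE 0.08, edgeR adjusted p = 0.011), and by 0.13 with the GC trend removed, which missed the threshold (adjusted p = 0.0608). In proficient cells the change was -0.04 (SE 0.08, edgeR adjusted p = 0.712), and -0.075 with the trend removed. SETDB1 was higher in proficient than in deficient cells by 0.44 (SE 0.08, edgeR adjusted p = 0.000348) among resistant libraries, and by 0.17 with the trend removed. The parental difference of 0.20 (edgeR adjusted p = 0.0408) was lost with each of the 8 libraries left out in turn (0.13 to 0.24), and was 0.11 with the trend removed.

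ATF7IP, which protects SETDB1 from degradation and holds it in the nucleus, had the largest rise of the set. It was at 180 and 181 CPM in parental deficient, 152 and 173 CPM in resistant deficient, 333 and 308 CPM in parental proficient and 503 and 524 CPM in resistant proficient libraries. The proficient groups were separated from each other and lay above both deficient groups. ATF7IP rose with resistance by 0.68 (SE 0.07, edgeR adjusted p = 1.40e-05), or 1.60-fold, in proficient cells. In deficient cells the change of -0.15 did not pass (edgeR adjusted p = 0.104). When resistant deficient replicate 2 was left out it was a fall (-0.27, adjusted p = 0.00668), and it was a rise of 0.14 (adjusted p = 0.00826) with the GC trend removed, so no direction can be given for deficient cells. The difference between the resistance effects was 0.83 (SE 0.10, edgeR adjusted p = 7.56e-05), and 0.59 with the trend removed.

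Between BRCA1 states ATF7IP was higher in proficient cells by 0.83 (SE 0.07, edgeR adjusted p = 2.79e-06) among parental and by 1.66 (SE 0.07, edgeR adjusted p = 7.37e-09), or 3.15-fold, among resistant libraries. With the trend removed these values were 0.50 and 1.09. Scaled to exon length, SETDB1 mRNA stood at 0.978 and 0.983 per ATF7IP mRNA in parental deficient, 0.945 and 0.861 in resistant deficient, 0.627 and 0.642 in parental proficient and 0.418 and 0.355 in resistant proficient libraries. On this scale the partners were near parity in deficient cells, and ATF7IP exceeded SETDB1 in all proficient libraries. The scale divides by merged exon lengths of 10831 bases for ATF7IP and 4658 for SETDB1. The lengths of the transcripts expressed were not measured, so parity between the 2 genes is uncertain.

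TRIM28, the corepressor of KRAB zinc finger proteins, was lower in proficient than in deficient cells. It was at 255 and 225 CPM in parental deficient, 365 and 266 CPM in resistant deficient, 91.2 and 100.4 CPM in parental proficient and 118 and 98.4 CPM in resistant proficient libraries. Every deficient library was above every proficient one, and the 2 resistant deficient libraries were far apart. TRIM28 was lower in proficient than deficient cells by 1.32 (SE 0.14, edgeR adjusted p = 1.03e-05), or 2.50-fold, among parental and by 1.54 (SE 0.14, edgeR adjusted p = 1.66e-06), or 2.92-fold, among resistant libraries. Its transcripts have 59.7% GC (83.8 percentile). With the GC trend removed both differences kept their direction at a smaller size, -0.73 (edgeR adjusted p = 4.45e-10) and -0.47 (edgeR adjusted p = 9.84e-08).

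The resistance effect on TRIM28 had no stable direction in deficient cells. The rise of 0.40 (SE 0.13, edgeR adjusted p = 0.0271) was lost without parental deficient replicate 2 (0.28, adjusted p = 0.219), resistant deficient replicate 1 (0.12, adjusted p = 0.370) or parental proficient replicate 1 (0.37, adjusted p = 0.0510). After removal of the GC trend it was a fall of 0.17 on the log2 scale (adjusted p = 0.00474). In proficient cells the change was 0.17 (SE 0.14, edgeR adjusted p = 0.316), 0.086 with the GC trend removed, and 0.22 without resistant deficient replicate 1 (adjusted p = 0.049). Scaled to exon length, TRIM28 exceeded its effector SETDB1 in every library. The ratio was 5.29 and 4.63 in parental deficient and 9.29 and 6.52 in resistant deficient libraries. It was 1.60 and 1.86 in parental proficient and 2.05 and 1.93 in resistant proficient libraries. These ratios are not corrected for the GC trend. With that trend removed, TRIM28 and SETDB1 changed by -0.17 and -0.13 in deficient resistance.

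The 3 HP1 genes, whose proteins bind H3K9me3 through a chromodomain, moved in different ways. CBX5 (HP1 alpha) was at 395 and 400 CPM in parental deficient, 225 and 245 CPM in resistant deficient, 591 and 556 CPM in parental proficient and 418 and 440 CPM in resistant proficient libraries, with no overlap between any 2 groups. It fell with resistance by 0.76 (SE 0.07, edgeR adjusted p = 4.72e-06) in deficient and by 0.42 (SE 0.06, edgeR adjusted p = 0.000235) in proficient cells. With the GC trend removed the falls were 0.46 and 0.37. The difference between these falls was 0.34 (edgeR adjusted p = 0.0114), and missed the threshold with the trend removed (0.09, adjusted p = 0.165) and without parental proficient replicate 2 (0.29, adjusted p = 0.0614). CBX5 was higher in proficient cells by 0.53 (edgeR adjusted p = 3.30e-05) among parental and 0.87 (edgeR adjusted p = 4.26e-07) among resistant libraries, and by 0.19 and 0.28 with the trend removed.

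CBX1 (HP1 beta) was at 168 and 176 CPM in parental deficient, 181 and 197 CPM in resistant deficient, 251 and 242 CPM in parental proficient and 293 and 320 CPM in resistant proficient libraries. It was the HP1 gene with its highest levels in resistant proficient cells. CBX1 rose with resistance by 0.31 (SE 0.07, edgeR adjusted p = 0.00281) in proficient cells. In deficient cells the change of 0.13 did not pass (edgeR adjusted p = 0.123), and was 0.30 (adjusted p = 2.78e-05) with the GC trend removed. The difference in this effect between backgrounds did not pass (0.18, SE 0.10, edgeR adjusted p = 0.164, and -0.012 with the GC trend removed), but passed without resistant deficient replicate 2 (0.31, adjusted p = 0.0214) and without resistant proficient replicate 1 (0.32, adjusted p = 0.0257). CBX1 was higher in proficient cells by 0.52 (edgeR adjusted p = 6.58e-05) among parental and 0.70 (edgeR adjusted p = 3.88e-06) among resistant libraries, and by 0.41 and 0.40 with the trend removed.

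CBX3 (HP1 gamma), which is also found along transcribed genes, was at 333 and 356 CPM in parental deficient, 257 and 288 CPM in resistant deficient, 317 and 296 CPM in parental proficient and 301 and 324 CPM in resistant proficient libraries. Only the deficient groups were separated by resistance. CBX3 fell there by 0.34 (SE 0.07, edgeR adjusted p = 0.0027), and the change was 0.01 (adjusted p = 0.830) with the GC trend removed, its transcripts having 37.8% GC (2.86 percentile). In proficient cells the change was 0.03 (edgeR adjusted p = 0.767), and 0.089 (adjusted p = 0.0474) with the trend removed. The difference between backgrounds of 0.37 (edgeR adjusted p = 0.0148) was 0.08 (adjusted p = 0.222) with the trend removed, and missed the threshold without parental proficient replicate 2 (0.32, adjusted p = 0.0726). Between BRCA1 states CBX3 was higher by 0.20 (edgeR adjusted p = 0.0316) in resistant proficient cells as tested and lower, at -0.47, with the trend removed. It also missed the threshold there without resistant deficient replicate 1 (0.15), without resistant proficient replicate 2 (0.17), with library totals alone (0.17) and with the 2 groups alone (0.19). Among parental cells the value of -0.17 did not pass (edgeR adjusted p = 0.0699), but it passed in 12 of 17 alternatives, among them DESeq2 (-0.18, adjusted p = 0.0447), the fit without any 1 of the 4 resistant libraries (-0.21) and removal of the trend (-0.55, adjusted p = 3.79e-10).

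**Figure D2:**
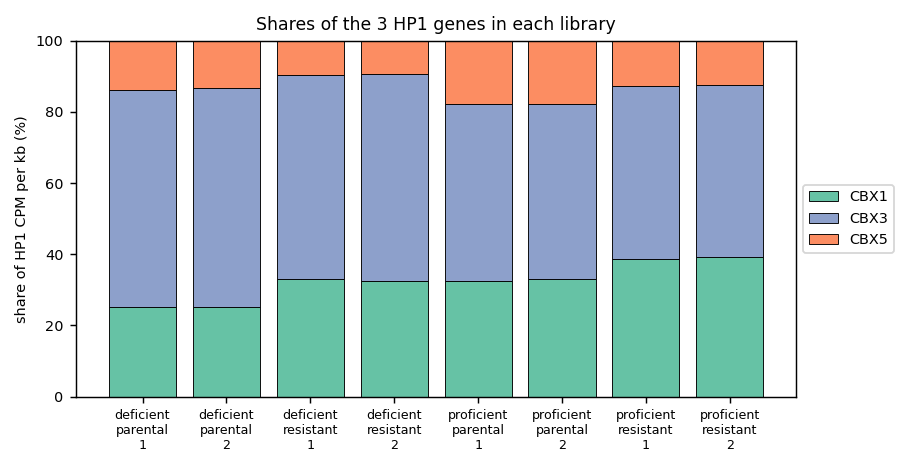
Share of each HP1 gene (y axis, percent of the summed CPM per kb of exon of the 3 genes) in each library (x axis, groups and replicate numbers). CBX5 holds 9.44% to 9.57% in resistant deficient libraries and 17.7% in parental proficient ones, while CBX1 holds more in each resistant group than in its parental group.

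Per kilobase of exon, CBX3 was the most abundant HP1 transcript and CBX5 the least in every library. By CPM alone CBX5 was above CBX3 in all groups but resistant deficient. The scale divides by merged exon lengths of 11851 bases for CBX5, 2262 for CBX3 and 2756 for CBX1. The lengths of the transcripts expressed were not measured, so the order of the 3 genes and the sizes of their shares are uncertain. CBX5 made up 13.8% and 13.2% of the summed HP1 level in parental deficient, 9.57% and 9.44% in resistant deficient, 17.7% in both parental proficient and 12.9% and 12.5% in resistant proficient libraries. CBX1 made up 25.3% and 25.1%, 33.1% and 32.6%, 32.4% and 33.1%, and 38.6% and 39.2% in the same order of groups. The share of CBX5 was thus lower and that of CBX1 higher in both resistant derivatives, and groups did not overlap within a background for either gene. In deficient cells the level of CBX1 itself did not pass the test. CBX3 held 60.9% and 61.7% in parental deficient and 57.3% and 58.0% in resistant deficient libraries, and 48.3% to 49.8% in proficient ones. These shares are not corrected for the GC trend, without which the level of CBX3 in deficient resistance changed by 0.010.

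SUV39H1, which propagates H3K9me3 in pericentromeric heterochromatin, was the lowest of the 10 per kilobase in all 4 groups. It was at 13.8 and 14.7 CPM in parental deficient, 20.4 and 17.4 CPM in resistant deficient, 8.83 and 9.02 CPM in parental proficient and 8.15 and 6.33 CPM in resistant proficient libraries. As for TRIM28, every deficient library was above every proficient one. SUV39H1 was lower in proficient cells by 0.68 (SE 0.16, edgeR adjusted p = 0.00294) among parental and by 1.38 (SE 0.16, edgeR adjusted p = 1.18e-05) among resistant libraries. Once the GC trend was removed, at 58.1% GC, these became -0.18 (adjusted p = 0.195) and -0.56 (adjusted p = 0.000405). Its rise with resistance in deficient cells, 0.40 (edgeR adjusted p = 0.0407), was lost without either parental deficient replicate, resistant deficient replicate 1 or either parental proficient replicate (0.25 to 0.42), and was -0.02 with the trend removed. The change in proficient cells was -0.30 (edgeR adjusted p = 0.147), and -0.40 with the trend removed (adjusted p = 0.0107). The difference between backgrounds was -0.70 (edgeR adjusted p = 0.0235), and missed the threshold with the trend removed (-0.38, adjusted p = 0.0652) and without either parental deficient replicate, resistant deficient replicate 1, either parental proficient replicate or resistant proficient replicate 2 (-0.69 to -0.47).

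**Figure D3:**
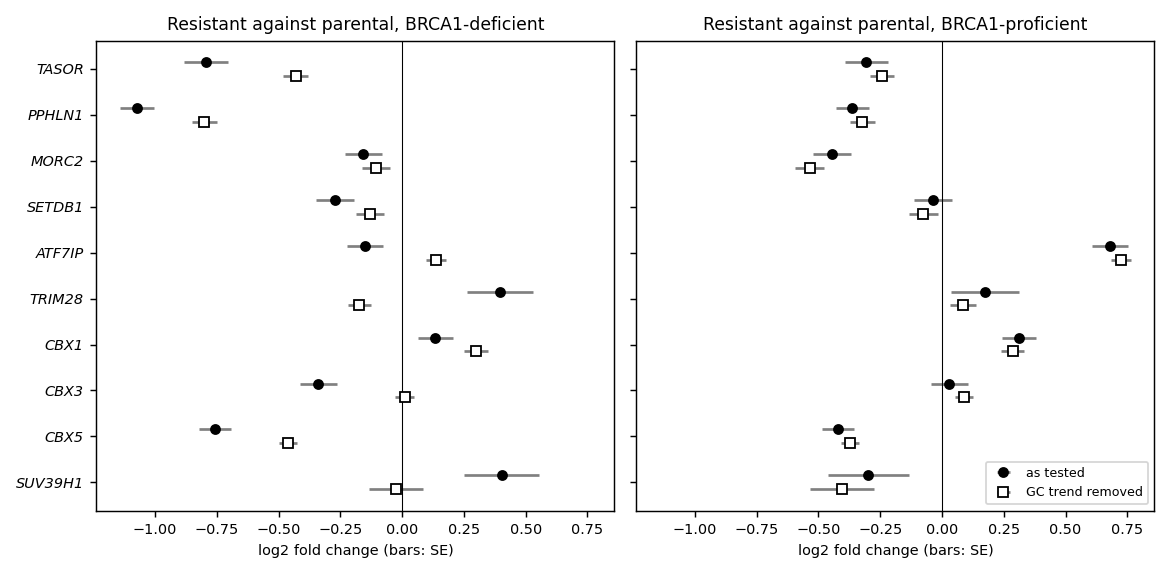
Log2 fold change of resistant against parental cells (x axis) for the 10 genes (y axis) in BRCA1-deficient (left) and BRCA1-proficient (right) cells, with filled circles as tested, open squares after removal of the GC trend, and bars as SE. TASOR, PPHLN1 and CBX5 lie below 0 in both panels with both settings, whereas TRIM28, ATF7IP, CBX3 and SUV39H1 change side in deficient cells.

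As a set, 7 of the 10 genes were called in deficient resistance, 2 up and 5 down, against 55.8% of all genes (28.9% up and 27.0% down). In proficient resistance 6 were called, 2 up and 4 down, against 53.7% of all genes (25.9% up and 27.8% down). The counts in either direction are near the shares of the whole table. Those called down, 5 and 4 of 10, are above its 27.0% and 27.8%. Whether the set differs from the table was not tested. The median log2 fold change of the 10 genes was -0.21 in deficient and -0.17 in proficient cells, against 0.03 and 0.00 over all genes. The resistance effect differed between backgrounds for 7 genes, 5 of them with the higher value in proficient cells, against 46.7% of all genes in either and 21.4% in that direction, with a median difference of 0.29 against -0.08.

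Between BRCA1 states, 7 of 10 genes differed among parental libraries, 5 higher and 2 lower in proficient cells (62.4% of all genes, 32.3% higher and 30.1% lower), and 10 of 10 among resistant ones (73.8% of all genes). In the resistant comparison 7 were higher in proficient cells, where 36.3% of all genes were, and TRIM28, SUV39H1 and MORC2 were lower. The median difference of the 10 was 0.14 among parental and 0.57 among resistant libraries, against 0.00 and -0.02 over all genes. With the GC trend removed 10 of 10 were again called among resistant libraries, 6 higher and 4 lower, CBX3 having changed direction.

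**Figure D4:**
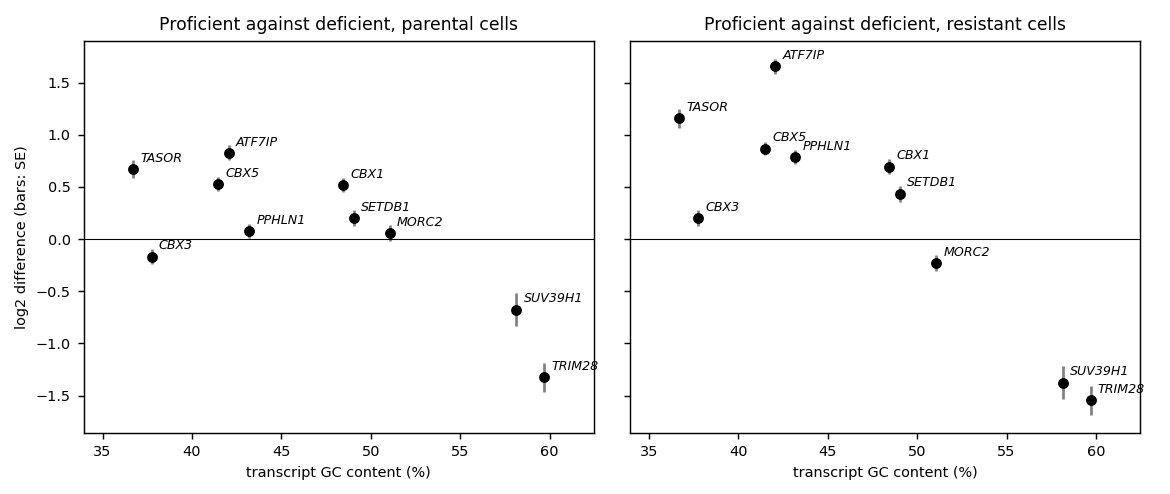
Log2 difference of BRCA1-proficient against BRCA1-deficient cells (y axis, bars as SE) against the GC content of each gene's transcripts (x axis, percent), in parental (left) and resistant (right) cells. TRIM28 and SUV39H1, at 59.7% and 58.1% GC, lie lowest in both panels, and CBX3, at 37.8%, lies well below TASOR at 36.7%.

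Per kilobase, the order of the 10 genes differed between backgrounds in several genes, among them TRIM28 and ATF7IP. TASOR ranked 9 in resistant deficient and 6 in resistant proficient cells. PPHLN1 ranked 5 in parental deficient and 7 in parental proficient cells. TRIM28 ranked next after CBX3 in both deficient groups, at 81.0 ± 7.28 CPM per kb (SD, n = 2) in parental and 106.6 ± 23.8 CPM per kb in resistant cells, where it overlapped CBX3 at 120.4 ± 9.66. In proficient cells it ranked at number 4, at 32.4 ± 2.21 CPM per kb in parental and 36.5 ± 4.62 in resistant cells, the latter overlapping CBX5 at 36.2 ± 1.28. ATF7IP moved up from 16.7 ± 0.0265 CPM per kb in parental deficient to 47.4 ± 1.40 in resistant proficient cells, where only CBX3 and CBX1 were above it. In resistant deficient cells PPHLN1 (10.2 ± 0.0109) and TASOR (9.84 ± 1.03) overlapped each other below MORC2 (11.5 ± 0.612). This order is not corrected for the GC trend, and it rests on merged exon lengths in place of those of the transcripts expressed.

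The genes whose log2 CPM over the 8 libraries was most like that of TASOR, among 9573 genes with a mean of at least 10 CPM, were FYTTD1, OPA1 and SIKE1, each with a Pearson r of 0.997. For TRIM28 they were PRMT1 (0.999), OAZ1 and FAU (0.998 each). These are descriptions over 8 libraries that share the GC trend, and 1302 and 1438 genes had an r over 0.9 with TASOR and TRIM28.

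Chromosomal neighbours moved with some of the silencing genes. Of all genes tested, 28.9% rose and 27.0% fell in deficient resistance, and 25.9% rose and 27.8% fell in proficient resistance. All 10 of the nearest tested genes around PPHLN1 fell with resistance in deficient cells, with a median log2 fold change of -1.19, close to the value of PPHLN1 itself. They included YAF2 (-1.13), a Polycomb partner, IRAK4 (-1.19), a kinase of Toll-like receptor signalling, and TWF1 (-1.15), an actin-binding protein. After removal of the GC trend 10 of 10 still fell (median -0.87). In proficient cells 7 of the 10 fell (median -0.62) and CNTN1, which encodes contactin, rose (0.95, SE 0.20, edgeR adjusted p = 0.00225). Around SUV39H1, 9 of 10 rose in deficient cells (median 0.85), where SUV39H1 itself was at -0.02 with the GC trend removed. Around ATF7IP, 8 fell and 2 rose in deficient cells (median -0.60), where ATF7IP itself had no stable direction. In proficient cells 5 rose and 2 fell around it (median 0.36). The neighbours of SUV39H1 and ATF7IP were not run with the trend removed. Around TASOR, 6 of 10 fell in deficient cells (median -0.45), and 3 rose and 2 fell in proficient cells. Around MPHOSPH8, 8 of 10 fell in resistant proficient cells, with a median fitted value of -8.50 that depends on the prior count. The part of copy number in these values was not tested.

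**Figure D5:**
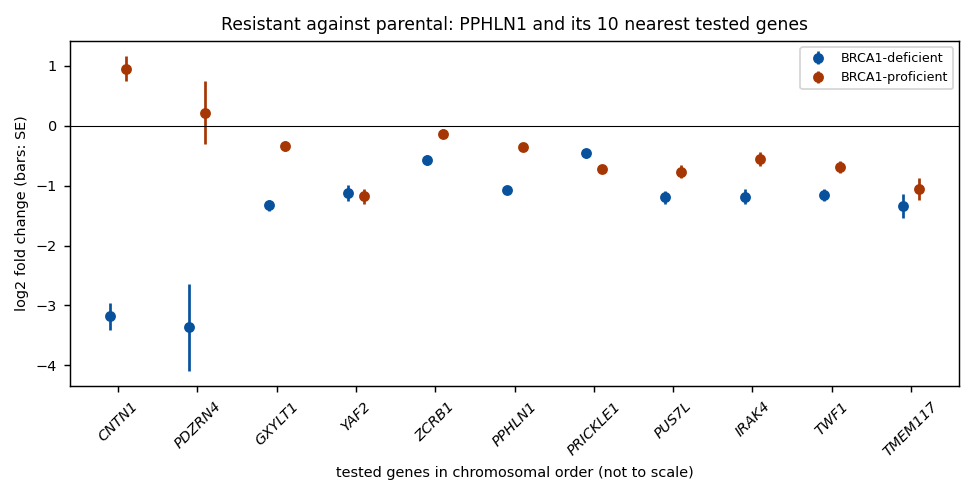
Log2 fold change of resistant against parental cells (y axis, bars as SE) for PPHLN1 and its 10 nearest tested genes in chromosomal order (x axis), in BRCA1-deficient and BRCA1-proficient cells. All 11 values are below 0 in deficient cells, and PPHLN1, at -1.07, is close to the median of its neighbours, -1.19.

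Some of the genes start head to head with another gene within 1000 bases in GENCODE v29, a comparison chosen after the values had been seen. Distances are the shortest between GENCODE v29 starts. They differ from the lengths printed above, which run from a RefSeq start of PPHLN1 or CBX5. CBX5 and HNRNPA1, a splicing factor that starts 91 bases away, fell together in deficient cells (-0.76 and -0.78). In proficient cells CBX5 fell by 0.42 while HNRNPA1 rose by 0.49 (SE 0.06, edgeR adjusted p = 5.50e-05), so the shared stretch printed above did not go with a shared direction there. PPHLN1 and ZCRB1, 40 bases apart, both fell in deficient cells (-1.07 and -0.57), and in proficient cells ZCRB1 did not pass the test (-0.13, edgeR adjusted p = 0.187, and -0.085 with the GC trend removed). YAF2, which starts 98 bases from a PPHLN1 transcript, fell with PPHLN1 in both deficient (-1.13, edgeR adjusted p = 4.73e-05) and proficient cells (-1.18, edgeR adjusted p = 1.80e-05). CBX3 and HNRNPA2B1, 369 bases apart, both fell in deficient cells (-0.34 and -0.55), and neither passed in proficient cells (0.03 and 0.07). The long noncoding RNA gene TUG1, 972 bases from MORC2, did not pass in either background (0.15 and 0.13), and was at 0.44 in deficient cells with the GC trend removed (adjusted p = 6.28e-08). That removal also gave falls of 0.27 for ZCRB1 and 0.23 for HNRNPA2B1 in deficient cells, and a rise of 0.12 for HNRNPA2B1 in proficient cells (adjusted p = 0.0298). Without stated strand-specific counting, reads at overlapping ends of such pairs cannot be assigned to 1 gene with certainty.

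Of 6 tested genes on a list of MPHOSPH8, HUSH-linked factors and paralogs, 1 rose and 2 fell in deficient resistance, and 3 rose and 3 fell in proficient resistance. Over all genes tested, 28.9% rose and 27.0% fell in deficient and 25.9% rose and 27.8% fell in proficient resistance. The gene that rose in deficient cells was MPHOSPH8, which was also 1 of the 3 that fell in proficient cells, while TASOR2 and MORC4 fell in deficient cells. TASOR2, the paralog of TASOR, fell by 1.34 (SE 0.08, edgeR adjusted p = 1.78e-07) in proficient cells, more than TASOR itself. MORC4, a relative of MORC2, was higher in proficient than deficient cells by 1.80 (SE 0.11, edgeR adjusted p = 1.01e-07) among resistant libraries, where MORC2 was lower.

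Other enzymes of H3K9 methylation also split. Of 7 other methyltransferases and partners, 3 rose and 2 fell in deficient resistance, and 0 rose and 4 fell in proficient resistance. The shares of all genes tested were 28.9% up and 27.0% down in deficient and 25.9% up and 27.8% down in proficient resistance. EHMT2 (G9a), which places H3K9me2, was lower in resistant proficient than resistant deficient cells by 1.40 (edgeR adjusted p = 1.33e-06), and by 0.32 with the GC trend removed. ZNF644, its partner, was higher by 1.13 (edgeR adjusted p = 5.13e-07) in that comparison, and by 0.46 with the trend removed. CDYL, a reader of H3K9 methylation, was higher in parental proficient than parental deficient cells by 1.02 (edgeR adjusted p = 5.15e-07). Of 11 H3K9 demethylases, 7 were higher and 1 lower in parental proficient cells, against 32.3% and 30.1% of all genes tested. The 7 included JMJD1C (1.15, edgeR adjusted p = 2.70e-07) and KDM7A (1.48, edgeR adjusted p = 6.56e-07). In deficient resistance 3 of the 11 rose and 4 fell, and in proficient resistance 1 rose and 3 fell. KDM4C, which removes H3K9me3, was higher in resistant proficient than resistant deficient cells by 1.99 (edgeR adjusted p = 4.08e-08).

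TRIM28 relatives, NuRD subunits and SUMO pathway genes showed no common direction. Of 22, 6 rose and 6 fell in deficient resistance, and 4 rose and 6 fell in proficient resistance. In parental proficient cells 8 were higher and 7 lower than in parental deficient cells. Of all genes tested, 28.9% rose and 27.0% fell, 25.9% rose and 27.8% fell, and 32.3% were higher and 30.1% lower, in the same order. SUMO2, whose product is attached to TRIM28 when it recruits SETDB1, rose by 0.90 (edgeR adjusted p = 4.84e-07) in proficient resistance. The NuRD subunits MTA3 (1.03, edgeR adjusted p = 1.84e-07) and GATAD2B (0.90, edgeR adjusted p = 6.71e-07) were higher in parental proficient than parental deficient cells.

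Of 12 tested KRAB zinc finger genes, whose products recruit TRIM28, 10 were higher in proficient cells and 0 lower among parental libraries, with a median difference of 0.78, and 10 and 0 among resistant libraries, with a median of 1.26. Of all genes tested, 32.3% and 36.3% were higher in these comparisons, with medians of 0.00 and -0.02, and 2 of the 12 did not pass in each. With the GC trend removed 8 and 0, and 10 and 1, were called. Examples are ZNF382 (2.16, edgeR adjusted p = 3.96e-07) and ZNF93 (1.14, edgeR adjusted p = 1.20e-06), a repressor of LINE-1 elements, among resistant libraries. ZNF10 rose by 1.52 (edgeR adjusted p = 1.98e-06) in proficient resistance, in which 6 of 12 rose and 0 fell, against 25.9% and 27.8% of all genes tested. Reads of zinc finger paralogs may be split between genes, so single values are uncertain. ZNF534, counted as higher in proficient cells, passed the filter on low counts only through proficient libraries. It had 14, 18, 38 and 41 counts there, against 2, 0, 5 and 12 in deficient libraries.

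Named genes derived from endogenous retroviruses, a class of HUSH and TRIM28 targets, were tested for 7 genes. Among resistant libraries 6 were higher and 0 lower in proficient cells, against 36.3% and 37.5% of all genes tested. With the GC trend removed these counts were 6 and 1. ERVV-1 (11 and 11 counts in resistant proficient, 0 and 0 in resistant deficient libraries) and ERVV-2 passed the filter on low counts only through proficient libraries. For them a higher value in proficient cells was nearly given in advance. ERVW-1 rests on 18 and 13 counts in resistant proficient against 2 and 6 in resistant deficient libraries. Among parental libraries 2 were higher and 1 lower in proficient cells, against 32.3% and 30.1% of all genes tested. In proficient resistance 2 rose and 0 fell, against 25.9% and 27.8%. ERV3-1 was higher in resistant proficient than resistant deficient cells by 1.03 (edgeR adjusted p = 3.04e-07), or 0.62 with the trend removed. ERVV-2 was higher there by 5.99 (edgeR adjusted p = 1.01e-06), from 196 and 141 counts against 1 and 5. Its counting is uncertain because of its paralog ERVV-1. In parental libraries ERVV-2 was already at 3.71 and 3.56 CPM in proficient and at 0.132 and 0 CPM in deficient cells. ERVMER34-1 fell with resistance in deficient cells by 1.82 (edgeR adjusted p = 4.72e-07). In that comparison 2 of the 7 rose and 2 fell, against 28.9% and 27.0% of all genes tested. Repeat copies outside named genes were not analysed here.

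HP1 partners and heterochromatin assembly factors also split. Of 15, 6 rose and 4 fell in deficient resistance, against 28.9% and 27.0% of all genes tested. In proficient resistance 2 rose and 7 fell, against 25.9% and 27.8%. LBR, the inner nuclear membrane receptor that binds HP1, fell by 1.40 (SE 0.07, edgeR adjusted p = 6.79e-08) in proficient resistance. INCENP, the centromere scaffold of Aurora B, was lower in resistant proficient than resistant deficient cells by 1.84 (edgeR adjusted p = 2.19e-07), and by 0.75 with the GC trend removed. POGZ, which displaces HP1, was higher in parental proficient than parental deficient cells by 0.86 (edgeR adjusted p = 5.37e-07).

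Among Polycomb chromobox genes, which read H3K27 methylation in place of H3K9 methylation, CBX2 (2.25, edgeR adjusted p = 3.62e-05), CBX8 (1.32, edgeR adjusted p = 0.000636), CBX7 (0.90, edgeR adjusted p = 0.000665) and CBX6 (0.53, edgeR adjusted p = 0.0033) rose in proficient resistance, in which CBX5 fell. In deficient resistance CBX8 rose by 1.21 (edgeR adjusted p = 0.000599) as tested, and the value was 0.34 (adjusted p = 0.130) with the GC trend removed. CBX2 was lower in parental proficient than parental deficient cells by 2.58 (edgeR adjusted p = 9.17e-06).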

How the data were processed

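The deposited table holds whole-number counts of reads per gene symbol for 8 libraries, made by the authors without normalization. Per the submitters' processing notes, Trimmomatic 0.39, featureCounts, Subread 2.0.1 and DESeq2 1.24.0 were used with the build GRCh37. Not given in the sources used here are the gene annotation, strandedness and how multi-mapping reads were counted. Groups came from the sample titles, 1 of which spells the resistance prefix differently.

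Counts were tested with edgeR 4.0.16 in R 4.3.3 by the quasi-likelihood test, with TMM factors, filterByExpr and all 8 libraries of the 4 groups in 1 fit without covariates, which leaves 4 residual degrees of freedom. Benjamini-Hochberg adjustment covered all 16221 genes tested, and a gene was called under 0.05. An exact permutation test of 2 against 2 libraries cannot go below 0.333. Levels are CPM on TMM-scaled totals, divided by merged GENCODE v29 exon length where genes are compared. Levels, and the ratios and shares made from them, are not corrected for the GC trend. The GC trend was removed by a spline of log2 CPM on transcript GC content with 5 degrees of freedom per library, for the 95.5% of tested genes with a value. Lists were counted, not tested. The 5 comparisons were resistance in each background, BRCA1 state in parental and in resistant cells, and the difference between the resistance effects. Replicates differed by more than sampling noise in every group. The steps were tested on simulated data.

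Named were the 10 genes, MPHOSPH8, BRCA1, up to 3 genes of each other list with the smallest p in any pairwise comparison, and the 3 genes most like TASOR and TRIM28. One gene taken by this rule is not reported here. Neighbours of PPHLN1, head-to-head partners, CBX6 and CBX7 were added after values were seen. The 10 genes and the lists were chosen with earlier results of these data known. Alternatives were RLE factors, library totals, other filters, DESeq2 1.42.0, the 2 groups alone, the replicate block, the GC correction, both together, and each library left out. For neighbours, gene order came from RefSeq (GRCh38.p14), which also gave the start-site sequences for 9 of the 10 genes.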

Additional observations from a re-analysis of the deposited data

Results flagged for a closer look

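The effect of resistance differed between the BRCA1 backgrounds, by a test of the difference itself, for 7 of the 10 genes and for MPHOSPH8. On the log2 scale, as the proficient minus the deficient effect, the differences were 0.49 for TASOR, 0.71 for PPHLN1, -0.29 for MORC2, 0.83 for ATF7IP, 0.37 for CBX3, 0.34 for CBX5, -0.70 for SUV39H1 and -9.87 for MPHOSPH8 (edgeR adjusted p from 5.41e-09 to 0.0451). For TASOR, PPHLN1 and CBX5 both effects were falls, larger in deficient cells. With the GC trend removed, TASOR's difference was 0.19 (adjusted p = 0.0325). For ATF7IP the proficient effect was a rise, and the deficient one did not pass as tested but passed in 4 of 17 alternatives, 2 as a fall and 2 as a rise. TASOR, PPHLN1 and ATF7IP passed in all 16 alternatives run for this comparison, as did MPHOSPH8, whose fitted value rests on 2 counts in resistant proficient cells and on the prior count. Differences for MORC2, CBX3, CBX5 and SUV39H1 did not pass in all of them.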

How the results depend on the processing

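Of 88 results for single named genes, 70 were called, and 55 of these kept their direction and side of the threshold in every alternative run. Removing the GC trend reversed 7 results, with the same values when the replicate block was added. In deficient resistance these were ATF7IP (0.14), TRIM28 (-0.17), CBX3 (0.010) and SUV39H1 (-0.024). The others were PPHLN1 in the parental comparison of BRCA1 states (-0.22), CBX3 in the resistant one (-0.47) and TRIM28 in the difference between resistance effects (0.26). The number of the 10 genes called for that difference ranged from 3 without parental proficient replicate 2 to 9 without resistant deficient replicate 2, against 7. In the other 4 comparisons the number called stayed within 1.5 times its main value in all alternatives.

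The labels share only a replicate number, and same-numbered libraries did not deviate together in all pairs (correlations 0.12 and -0.10 within the deficient and proficient backgrounds, -0.05 and 0.21 between them). With the replicate block the counts called were 7, 6, 7 and 10 as without it, and 6 against 7 for the difference between effects, where MORC2 missed the threshold (adjusted p = 0.0503). Depth was lowest for SUV39H1, at 152 to 600 counts a library, and the other 9 genes had at least 1371.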
